A study of Mus musculus with 18 samples.

Results

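The genes described here carry a cell through mitosis: the regulators that switch on late cell cycle transcripts, the cyclins and kinases that drive entry, the checkpoint, the kinetochores, the spindle and its motors, and the machinery that cuts the daughter cells apart. They were taken by name from a list of 49 such genes, drawn up with earlier results of these data known. Counts of these genes beside the share of all genes are therefore a description. Each gene was followed through the probe set of that symbol alone whose mean over the 18 arrays was highest. Of the 49 genes, 48 had a row among the 19938 genes of the deposited array table, and Ccnb1 (cyclin B1) had none. Total RNA labelled as terminal bronchiolar epithelial cells of mouse lung was measured on 18 Affymetrix Mouse Gene ST arrays, in 6 groups of 3. All mice shared a mixed background of FVB/N with C57BL/6 and were either control or Cebpa d/d, a genotype directed at the gene of the transcription factor C/EBP alpha. Mice of both genotypes were sampled 0, 3 and 72 hr after naphthalene, a compound that club cells of the small airways activate into a toxin, so that these cells die and are replaced by division of survivors. The alleles, any Cre driver, the age of the mice, how the cells were obtained and whether animals were pooled are not given in the sources used here, and nothing says that the 0 hr mice were untreated. Nothing in the labels says that the 3 arrays of a group came from separate mice, so p-values measure the spread between arrays, which may in part be technical, although every 0 and 3 hr group held arrays of both sexes and so came from more than 1 mouse. All levels are log2 values normalized with RMA, differences are log2 differences between group means with their standard error (SE, 3 arrays a group), and "rose" or "fell" is used at an adjusted p under 0.05 in limma over all 19938 genes.

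Most mitotic transcripts are scarce in resting cells and accumulate in the G2 phase, after DNA has been copied. FOXM1, B-MYB and the MuvB complex switch them on, and many of their promoters carry a CHR element (cell cycle genes homology region) together with CCAAT boxes, which NF-Y binds. Cyclin A or B with CDK1 then drives entry into mitosis, the spindle checkpoint holds the anaphase promoting complex (APC/C) until every kinetochore is attached, and the centralspindlin and anillin machinery divides the cytoplasm. In the airway epithelium few cells divide at rest, and a wave of division follows loss of club cells.

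To show how alike the members' promoters are, RefSeq promoters on GRCm38.p6 were searched for 3 short motifs on both strands, in windows from 250 bases before to 50 after the annotated start. The letters searched were TTTGAA for the CHR, CCAAT for the NF-Y box and GCGGGAA for an E2F site. RefSeq promoters matched 40 of the 48 genes, with 42 promoters, and none was printed or searched for Foxm1, Pbk, Smc4, Ccna2, Aurkb, Tpx2, Dlgap5 and Kif20a. TTTGAA stood in 76.2% of the 42 promoters against 17.9% of all 32851 promoters of this length, CCAAT in 69.0% against 37.4%, and both in 64.3% against 6.95%. TTTGAA lay within 50 bases of the start in 69.0% of the members' promoters and 4.94% of all. GCGGGAA was found in 1 of the 42 (2.38%, Ncapg) against 4.60% of all promoters. These 6 promoters are printed from 180 bases before to 30 after the start, with matches to the motifs in capitals, on either strand and none overlapping another in these windows. Cdk1 at chr10:69352883-69353092 (minus strand), Ccnb2 at chr9:70421525-70421734 (minus strand), Cdc20 at chr4:118437314-118437523 (minus strand) and Top2a at chr11:99024160-99024369 (minus strand) stand for the genes with both motifs. Nuf2 at chr1:169531435-169531644 (minus strand) and Mybl2 at chr2:163054455-163054664 (plus strand) hold none of the 3 exact runs of letters searched, and other forms of these sites were not searched. They are shown because, in control, the former rose about as much as Cdk1, while the latter did not pass the test in either genotype.
Cdk1: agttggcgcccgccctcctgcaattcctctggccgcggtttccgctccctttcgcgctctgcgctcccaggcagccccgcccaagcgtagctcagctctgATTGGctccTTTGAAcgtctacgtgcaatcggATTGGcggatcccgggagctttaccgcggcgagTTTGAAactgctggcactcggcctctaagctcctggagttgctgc
Ccnb2: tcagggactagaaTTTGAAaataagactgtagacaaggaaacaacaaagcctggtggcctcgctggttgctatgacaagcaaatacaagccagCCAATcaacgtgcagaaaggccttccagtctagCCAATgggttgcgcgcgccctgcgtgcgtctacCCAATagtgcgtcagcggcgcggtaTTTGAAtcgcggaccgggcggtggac
Cdc20: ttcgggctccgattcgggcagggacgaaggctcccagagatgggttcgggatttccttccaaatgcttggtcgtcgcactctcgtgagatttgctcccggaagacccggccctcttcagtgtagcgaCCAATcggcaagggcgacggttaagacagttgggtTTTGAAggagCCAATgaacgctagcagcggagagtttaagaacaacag
Top2a: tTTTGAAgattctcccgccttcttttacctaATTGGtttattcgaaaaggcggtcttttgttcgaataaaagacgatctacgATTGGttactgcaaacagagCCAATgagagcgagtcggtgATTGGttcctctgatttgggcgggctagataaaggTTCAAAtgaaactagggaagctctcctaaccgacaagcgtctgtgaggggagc
Nuf2: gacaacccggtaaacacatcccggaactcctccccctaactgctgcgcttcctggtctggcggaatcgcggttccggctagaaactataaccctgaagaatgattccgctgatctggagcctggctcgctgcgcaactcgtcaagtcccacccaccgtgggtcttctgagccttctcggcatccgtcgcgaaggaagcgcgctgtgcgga
Mybl2: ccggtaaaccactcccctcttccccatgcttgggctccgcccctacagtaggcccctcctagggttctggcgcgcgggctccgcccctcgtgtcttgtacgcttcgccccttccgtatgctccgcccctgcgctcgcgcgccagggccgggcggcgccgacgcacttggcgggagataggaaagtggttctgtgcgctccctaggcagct

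Both Cdk1 and Ccnb2 place a TTTGAA near the start with CCAAT boxes (written ATTGG on the other strand) upstream, and Top2a carries 4 CCAAT boxes in the window printed. Among the 40 genes, 25 held both motifs, 5 held TTTGAA only (Anln, Kif15, Kif20b, Kif2c, Ndc80), 2 held CCAAT only (Bub1, Cenpe) and 8 held neither (Birc5, Kif18a, Mad2l1, Melk, Mybl2, Ncaph, Nuf2, Nusap1). A match is a run of letters and not a measured binding site, and its absence says only that these letters are not in the window.

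**Figure D1:**
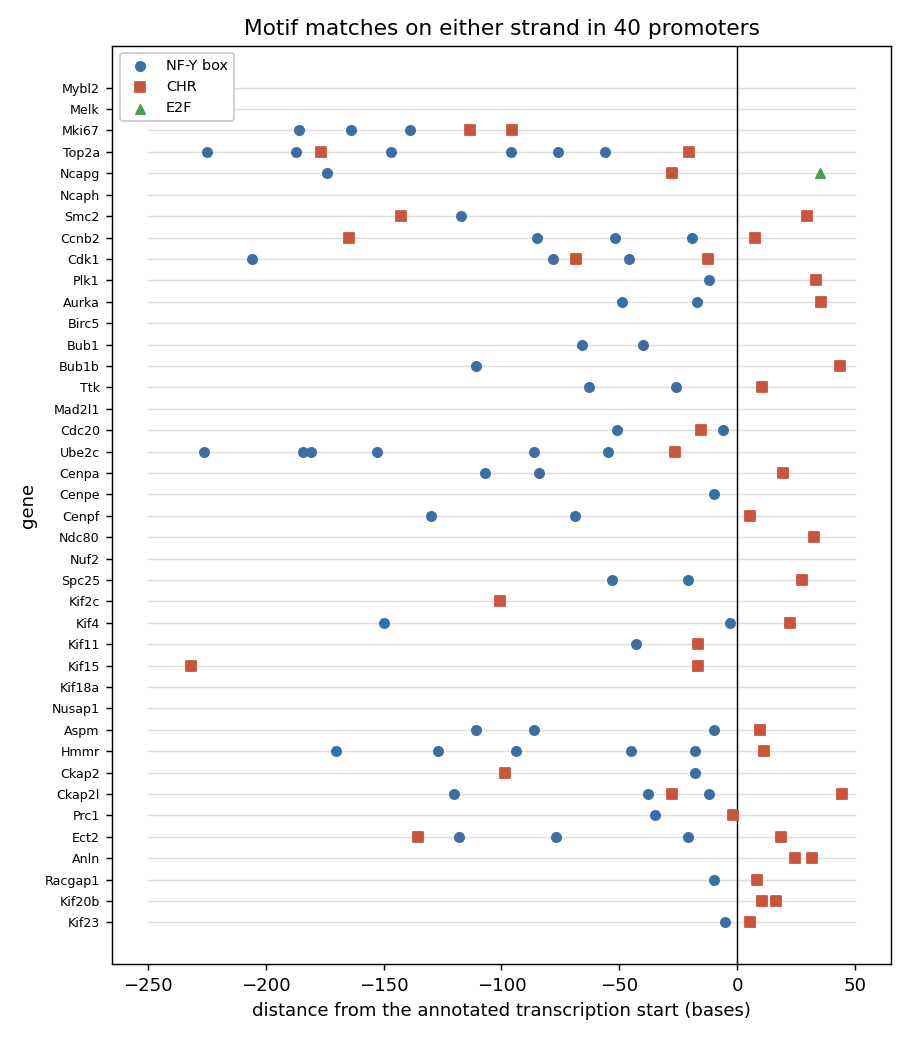
Positions of CCAAT (circles), TTTGAA (squares) and GCGGGAA (triangle) in RefSeq promoters of 40 genes, 1 promoter a gene, as distance in bases from the annotated start. The CHR letters gather close to the start with CCAAT boxes mostly upstream, and 8 genes have no match.

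The array labelled control 0 hr replicate 1 read Cebpa at 7.89, against 10.07 and 10.17 on the other two of its group and 7.83 to 8.27 on the Cebpa d/d 0 hr arrays, so it goes against its label. Cebpa read 8.07 to 8.37 in Cebpa d/d and 10.30 to 10.52 in control at 3 hr, and 7.90 to 9.07 against 9.69 to 9.87 at 72 hr. The 9.07 was Cebpa d/d 72 hr replicate 1, the highest Cebpa level of any Cebpa d/d array. Replicates 2 and 3 of that group read 8.55 and 7.90. By Xist and Eif2s3y, all 6 arrays at 72 hr were from females, while each genotype had 1 female and 2 male arrays at 0 hr and again at 3 hr. Summed club cell markers (5 genes, Scgb1a1 and Cyp2f2 among them) read 14.19 to 14.84 on all arrays, so the labelled epithelium was present. Summed markers of other lung cells were also well measured, with alveolar type 2 at 13.37 to 14.02, alveolar type 1 at 11.24 to 11.89 and endothelium at 11.25 to 12.44. Cardiac muscle markers (7 genes) summed to 14.01 to 14.55 on the Cebpa d/d 0 hr arrays and 12.26 to 13.47 on all others.

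By 72 hr after naphthalene the mitosis genes had risen together in both genotypes. Averaged over the 48 genes, the log2 level on the control arrays was 6.51, 6.29 and 6.47 at 0 hr, 6.19, 6.17 and 6.15 at 3 hr and 7.57, 7.68 and 7.72 at 72 hr. The Cebpa d/d arrays averaged 6.31, 6.44 and 6.31 at 0 hr, 6.31, 6.17 and 6.36 at 3 hr and 7.24, 8.03 and 7.65 at 72 hr. Every 72 hr array therefore lay above every array of the earlier times, while 0 and 3 hr lay close together. From 0 to 72 hr, 44 of the 48 genes rose in control, 47 of the 48 rose in Cebpa d/d, and none fell. Over all genes 4.95% rose and 2.2% fell in control, and 3.39% rose and 1.42% fell in Cebpa d/d. The median difference of the 48 was 1.31 in control, a 2.49-fold increase, and 1.32 in Cebpa d/d, against -0.02 over all genes in both. For 47 of the 48 genes in each genotype, the exception being Mybl2, the 72 hr arrays did not overlap the 0 hr arrays, against 13.1% of all genes in control and 12.2% in Cebpa d/d that were higher without overlap. In a whole-sample measurement of this kind, more cells in division and more RNA per cell cannot be told apart.

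**Figure D2:**
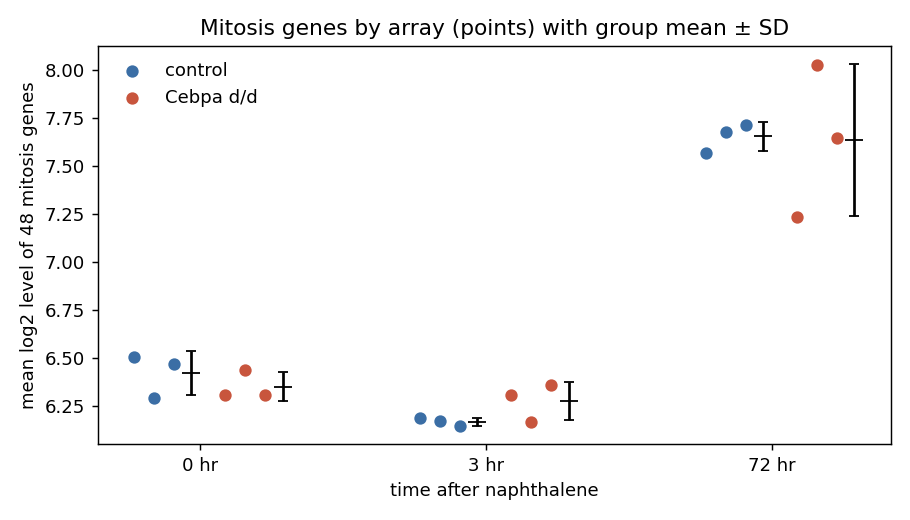
Mean log2 level of the 48 mitosis genes on each array (points) by time after naphthalene in hours, with the group mean ± SD of 3 arrays beside them, control in blue and Cebpa d/d in red. The 72 hr arrays of both genotypes lie between 7.24 and 8.03, above all earlier arrays, which reach at most 6.51, and the Cebpa d/d 72 hr arrays are spread most widely.

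Against the 3 hr arrays the rise was of like size, though these comparisons use the same 72 hr arrays and are no separate evidence. From 3 to 72 hr, 46 of 48 genes rose in control, where 11.2% of all genes rose and 8.57% fell, and the median was 1.58. For Cebpa d/d it was 47 of 48, where 4.88% of all genes rose and 3.67% fell, and the median was 1.43. Beside Mybl2, the gene that did not pass in control was Aurkb, with a difference of 0.35 ± 0.12 (adjusted p = 0.052). Ranked by the size of the rise from 0 to 72 hr among all 19938 genes, 22 of the 48 stood in the top 100 in control and 27 in Cebpa d/d, and 37 and 40 stood in the top 500. Top2a ranked 25 in control, the highest place of the 48 there, and Cenpe ranked 3 in Cebpa d/d. Sex moved with time, since all 72 hr arrays were female. Compared with the single female 0 hr array of the same genotype, all 3 of the 72 hr arrays were higher for 48 of 48 genes in control, against 30.2% of all genes, and for 47 of 48 in Cebpa d/d, against 26.4%. With sex as a covariate, 42 of 48 genes rose in each genotype, with medians of 1.34 and 1.36. That sex term came from the 0 and 3 hr arrays alone and was taken to be the same at 72 hr. A sex effect particular to 72 hr cannot be told apart from time. Without the control 0 hr array that goes against its label, 43 of 48 rose in control. Among markers of cell types, from 0 to 72 hr, 1 of 5 club cell markers fell in control, Cyp2f2 by 0.76 (adjusted p = 0.00182), and 0 of 5 passed in Cebpa d/d. The summed club cell level in control was 14.73 to 14.84 at 0 hr and 14.35 to 14.38 at 72 hr, and in Cebpa d/d 14.79 to 14.82 and 14.19 to 14.63. Of 7 cardiac muscle markers, 6 fell in Cebpa d/d and 0 passed in control, and of 5 endothelial markers 4 fell in control and 2 in Cebpa d/d. Of 6 ciliated cell markers, 1 rose in control (Tekt1) and 4 in Cebpa d/d. Macrophage markers rose for 2 of 7 genes in control and 0 in Cebpa d/d. No T or B cell marker rose, and Cd3e and Cd79a fell in control. Alas2, a red blood cell marker, fell in both genotypes. The alveolar type 1 marker Aqp5 rose by 0.54 (adjusted p = 0.0098) in control and 0.51 (adjusted p = 0.0168) in Cebpa d/d. In control only, the alveolar type 2 marker Sftpb rose by 0.40 (adjusted p = 0.037) and the fibroblast marker Col1a1 by 0.45 (adjusted p = 0.0483). The part of these cell types in the mitotic rise was not tested.

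**Figure D3:**
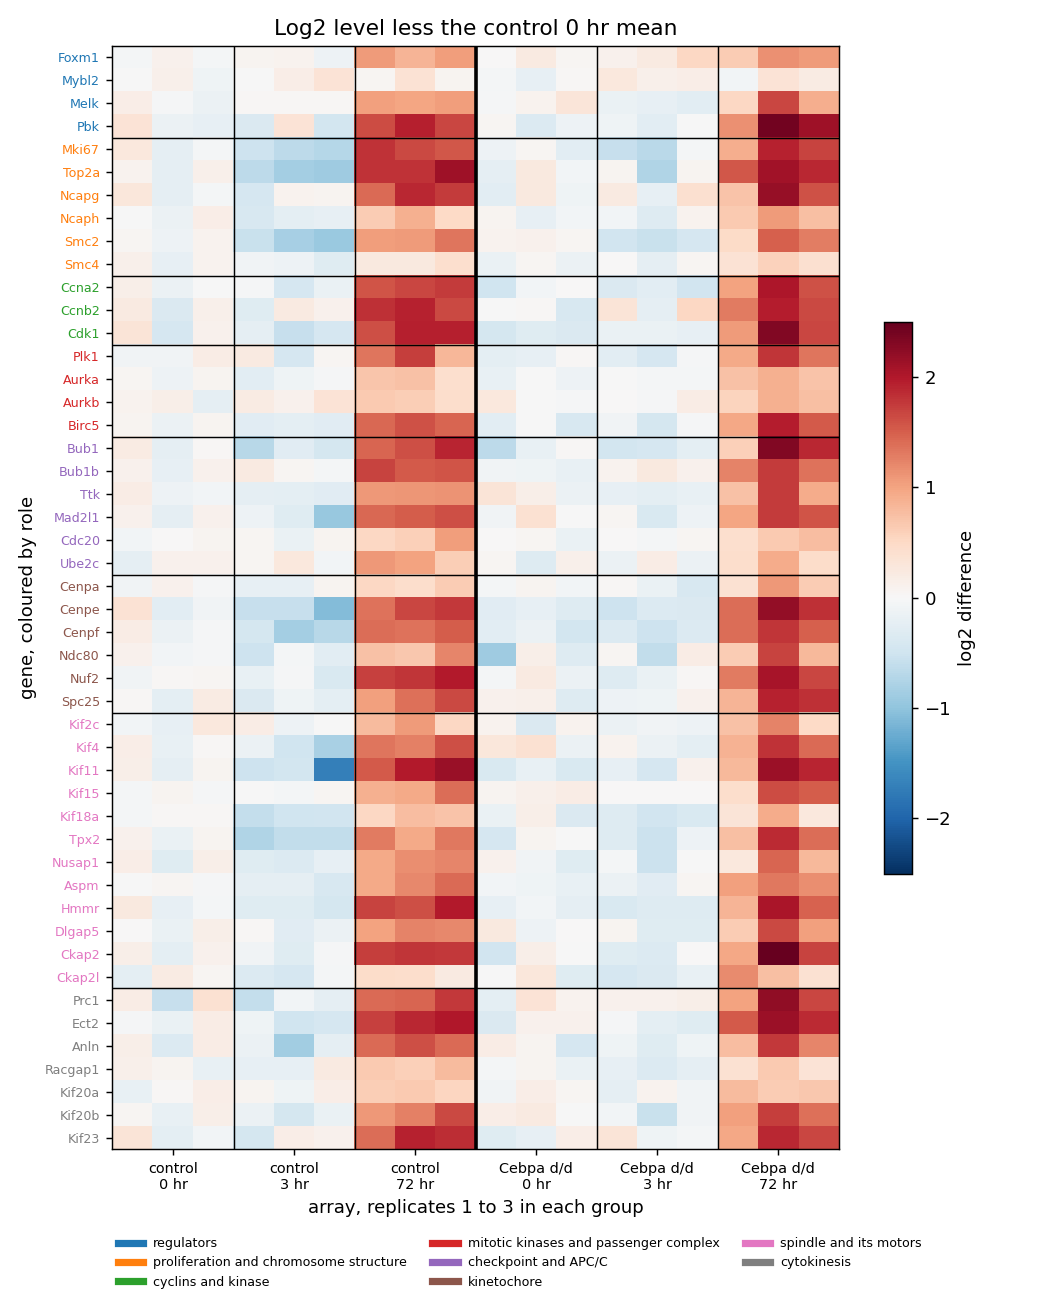
Log2 level of each of the 48 genes (rows, coloured by role) on each of the 18 arrays (columns, replicates 1 to 3 in each group), less the gene's control 0 hr mean. Red, higher, fills the 72 hr columns of both genotypes in nearly every row, Mybl2 stays pale, and the last Cebpa d/d block runs from weak in replicate 1 to strong in replicate 2.

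The regulators Foxm1, Mybl2, Melk and Pbk did not move as a block: 3 of 4 rose in each genotype. Foxm1 encodes the forkhead factor that switches on late cell cycle genes. Control arrays held Foxm1 at 5.68, 5.83 and 5.67 at 0 hr, 5.80, 5.81 and 5.61 at 3 hr and 6.79, 6.58 and 6.78 at 72 hr. Foxm1 on Cebpa d/d arrays read 5.74, 5.95 and 5.78 at 0 hr, 5.83, 5.95 and 6.24 at 3 hr and 6.36, 6.88 and 6.80 at 72 hr. All 72 hr arrays were above all earlier ones in both genotypes, and the rise from 0 hr was 0.99 ± 0.13 (adjusted p = 0.000437) in control and 0.86 ± 0.13 (adjusted p = 0.000905) in Cebpa d/d. Mybl2 encodes B-MYB, which joins the MuvB complex in S phase. Mybl2 in control read 6.26, 6.39 and 6.17 at 0 hr, 6.28, 6.44 and 6.62 at 3 hr and 6.33, 6.64 and 6.35 at 72 hr. Cebpa d/d levels of Mybl2 were 6.23, 6.06 and 6.30 at 0 hr, 6.53, 6.40 and 6.44 at 3 hr and 6.20, 6.62 and 6.48 at 72 hr. Its 72 hr arrays overlapped the 0 and 3 hr arrays in both genotypes, and the difference from 0 to 72 hr was 0.17 ± 0.12 (adjusted p = 0.487) in control and 0.24 ± 0.12 (adjusted p = 0.333) in Cebpa d/d, which did not pass in either. Melk, a kinase gene expressed in dividing cells, rose by 1.02 ± 0.19 (adjusted p = 0.00403) and 0.91 ± 0.19 (adjusted p = 0.00957). Pbk, another mitotic kinase gene, rose by 1.74 ± 0.26 (adjusted p = 0.00107) in control and 2.02 ± 0.26 (adjusted p = 0.000226) in Cebpa d/d.

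Genes of chromosome surface and chromosome structure rose in all 6 of 6 cases in Cebpa d/d and 5 of 6 in control. Mki67 encodes Ki-67, the protein coat of mitotic chromosomes and the standard label of dividing cells. Mki67 in control read 7.05, 6.56 and 6.73 at 0 hr, 6.25, 6.13 and 6.07 at 3 hr and 8.59, 8.42 and 8.33 at 72 hr. Mki67 in Cebpa d/d read 6.66, 6.82 and 6.52 at 0 hr, 6.21, 6.10 and 6.73 at 3 hr and 7.68, 8.71 and 8.47 at 72 hr. All 72 hr arrays lay above all earlier ones of their genotype, and the rise was 1.67 ± 0.21 (adjusted p = 0.000307) in control and 1.62 ± 0.21 (adjusted p = 0.000239) in Cebpa d/d. Top2a encodes topoisomerase II alpha, which untangles sister DNA. Control arrays held Top2a at 7.79, 7.48 and 7.82 at 0 hr, 7.05, 6.86 and 6.80 at 3 hr and 9.50, 9.50 and 9.81 at 72 hr. Top2a on Cebpa d/d arrays read 7.48, 7.94 and 7.63 at 0 hr, 7.78, 6.94 and 7.76 at 3 hr and 9.26, 9.80 and 9.59 at 72 hr. This was the largest rise of the 48 in control, at 1.91 ± 0.20 (adjusted p = 6.62e-05) in control and 1.87 ± 0.20 (adjusted p = 3.9e-05) in Cebpa d/d. A further Top2a probe set, not used because its mean was lower, stayed between group means of 4.48 and 4.53 at 0 and 72 hr. That is well below the array medians of 6.48 to 6.65, and whether it detects the transcript was not tested. The 2 probe sets thus differ in level and in change.

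Ncapg, Ncaph, Smc2 and Smc4 encode parts of condensin, the ring that compacts chromosomes. Ncapg in control read 6.52, 6.03 and 6.19 at 0 hr, 5.84, 6.33 and 6.32 at 3 hr and 7.66, 8.13 and 7.99 at 72 hr. Ncapg in Cebpa d/d read 5.99, 6.49 and 6.14 at 0 hr, 6.48, 6.04 and 6.66 at 3 hr and 6.97, 8.42 and 7.83 at 72 hr. Its 72 hr arrays were clear of the rest, with a rise of 1.68 ± 0.28 (adjusted p = 0.00191) in control and 1.54 ± 0.28 (adjusted p = 0.00344) in Cebpa d/d. Smc2 in control read 7.42, 7.23 and 7.46 at 0 hr, 6.80, 6.54 and 6.44 at 3 hr and 8.42, 8.43 and 8.71 at 72 hr. Smc2 in Cebpa d/d read 7.46, 7.47 and 7.42 at 0 hr, 6.89, 6.82 and 6.95 at 3 hr and 7.85, 8.86 and 8.64 at 72 hr. Here the 3 hr arrays lay below the 0 hr arrays in both genotypes and the 72 hr arrays above both, and the rise from 0 hr was 1.15 ± 0.18 (adjusted p = 0.00142) in control and 1.0 ± 0.18 (adjusted p = 0.00385) in Cebpa d/d. Smc4 in control read 9.89, 9.56 and 9.85 at 0 hr, 9.67, 9.63 and 9.47 at 3 hr and 10.01, 10 and 10.18 at 72 hr. Smc4 in Cebpa d/d read 9.61, 9.81 and 9.63 at 0 hr, 9.77, 9.54 and 9.81 at 3 hr and 10.12, 10.35 and 10.17 at 72 hr. The 72 hr arrays were higher without overlap in both, but the difference was small, 0.30 ± 0.11 (adjusted p = 0.114) in control and 0.53 ± 0.11 (adjusted p = 0.00867) in Cebpa d/d, and passed in Cebpa d/d and not in control, with an interaction that did not pass. Ncaph rose by 0.67 ± 0.14 and 0.89 ± 0.14.

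The cyclins and their kinase, the engine of mitotic entry, rose in 3 of 3 measured cases in each genotype. Ccna2 encodes cyclin A2, active from S phase to early mitosis. Control arrays held Ccna2 at 6.64, 6.34 and 6.47 at 0 hr, 6.45, 6.07 and 6.32 at 3 hr and 8.05, 8.16 and 8.23 at 72 hr. Ccna2 on Cebpa d/d arrays read 5.99, 6.41 and 6.5 at 0 hr, 6.12, 6.22 and 6.01 at 3 hr and 7.48, 8.50 and 8.06 at 72 hr. The 72 hr arrays stood apart from all earlier arrays, and the rise was 1.66 ± 0.19 (adjusted p = 0.000164) in control and 1.71 ± 0.19 (adjusted p = 6.12e-05) in Cebpa d/d. Ccnb2 encodes cyclin B2, a mitotic partner of CDK1, and its promoter is among those printed. Ccnb2 in control read 8.01, 7.41 and 7.91 at 0 hr, 7.48, 8.01 and 7.89 at 3 hr and 9.60, 9.71 and 9.43 at 72 hr. Ccnb2 in Cebpa d/d read 7.76, 7.81 and 7.37 at 0 hr, 8.10, 7.55 and 8.29 at 3 hr and 9.07, 9.74 and 9.43 at 72 hr. Again the 72 hr arrays did not overlap the others, and the rise was 1.80 ± 0.21 (adjusted p = 0.00019) in control and 1.77 ± 0.21 (adjusted p = 0.000115) in Cebpa d/d. Cdk1 encodes the kinase that triggers mitosis. Control arrays held Cdk1 at 7.29, 6.56 and 7.07 at 0 hr, 6.74, 6.39 and 6.56 at 3 hr and 8.58, 8.92 and 8.91 at 72 hr. Cdk1 on Cebpa d/d arrays read 6.54, 6.67 and 6.61 at 0 hr, 6.80, 6.81 and 6.77 at 3 hr and 8.03, 9.28 and 8.65 at 72 hr. Its rise of 1.83 ± 0.23 (adjusted p = 0.000279) in control and 2.05 ± 0.23 (adjusted p = 6.1e-05) in Cebpa d/d was the second largest of the 48 in Cebpa d/d.

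The mitotic kinases and the chromosomal passenger complex rose in 4 of 4 cases in each genotype, by unequal amounts. Plk1 encodes Polo-like kinase, which acts in centrosome maturation and entry. Plk1 in control read 6.09, 6.10 and 6.37 at 0 hr, 6.40, 5.76 and 6.23 at 3 hr and 7.53, 7.91 and 7.01 at 72 hr. Plk1 in Cebpa d/d read 5.93, 5.98 and 6.21 at 0 hr, 5.92, 5.77 and 6.16 at 3 hr and 7.14, 7.98 and 7.52 at 72 hr. The 72 hr arrays were scattered but above all others, with a rise of 1.30 ± 0.22 (adjusted p = 0.00254) in control and 1.5 ± 0.22 (adjusted p = 0.000723) in Cebpa d/d. Aurka encodes Aurora A, a kinase of the spindle poles. Control arrays held Aurka at 7.10, 6.91 and 7.11 at 0 hr, 6.79, 6.94 and 7.02 at 3 hr and 7.73, 7.77 and 7.47 at 72 hr. Aurka on Cebpa d/d arrays read 6.86, 7.03 and 6.91 at 0 hr, 7.03, 7.0 and 7.0 at 3 hr and 7.77, 7.94 and 7.76 at 72 hr. Its 72 hr arrays did not overlap the earlier ones, and the smaller rise of 0.61 ± 0.10 (adjusted p = 0.00141) in control and 0.89 ± 0.10 (adjusted p = 4.88e-05) in Cebpa d/d still passed. Aurkb encodes Aurora B, the kinase of the passenger complex. Aurkb in control read 6.49, 6.55 and 6.19 at 0 hr, 6.62, 6.51 and 6.75 at 3 hr and 7.06, 7.03 and 6.85 at 72 hr. Aurkb in Cebpa d/d read 6.68, 6.40 and 6.38 at 0 hr, 6.41, 6.38 and 6.60 at 3 hr and 6.96, 7.29 and 7.16 at 72 hr. Aurkb had the smallest rise of this group, 0.57 ± 0.12 (adjusted p = 0.00899) in control and 0.65 ± 0.12 (adjusted p = 0.00433) in Cebpa d/d. Birc5 encodes survivin, the passenger that brings Aurora B to centromeres. Birc5 in control read 7.03, 6.81 and 7.02 at 0 hr, 6.68, 6.72 and 6.67 at 3 hr and 8.39, 8.55 and 8.42 at 72 hr. Birc5 in Cebpa d/d read 6.68, 6.95 and 6.56 at 0 hr, 6.87, 6.52 and 6.92 at 3 hr and 7.93, 8.91 and 8.49 at 72 hr. Birc5, whose promoter window held none of the 3 motifs, rose by 1.5 ± 0.18 (adjusted p = 0.000204) in control and 1.71 ± 0.18 (adjusted p = 3.63e-05) in Cebpa d/d.

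Checkpoint genes and those of the APC/C that the checkpoint restrains rose in 6 of 6 cases in each genotype. Bub1 and Ttk encode checkpoint kinases at the kinetochore. Bub1 in control read 5.83, 5.40 and 5.65 at 0 hr, 4.94, 5.35 and 5.19 at 3 hr and 7.07, 7.25 and 7.53 at 72 hr. Bub1 in Cebpa d/d read 4.96, 5.43 and 5.65 at 0 hr, 5.16, 5.21 and 5.38 at 3 hr and 6.21, 7.93 and 7.51 at 72 hr. Replicate 1 of the Cebpa d/d 72 hr group was far below its partners but above every earlier array, and the rise was 1.66 ± 0.30 (adjusted p = 0.00354) in control and 1.87 ± 0.30 (adjusted p = 0.00138) in Cebpa d/d. Control arrays held Ttk at 5.70, 5.39 and 5.43 at 0 hr, 5.28, 5.25 and 5.21 at 3 hr and 6.59, 6.61 and 6.62 at 72 hr. Ttk on Cebpa d/d arrays read 5.83, 5.64 and 5.35 at 0 hr, 5.30, 5.26 and 5.33 at 3 hr and 6.24, 7.26 and 6.43 at 72 hr. The control arrays at 72 hr were nearly equal and the rise was 1.10 ± 0.19 (adjusted p = 0.00227) in control and 1.04 ± 0.19 (adjusted p = 0.00342) in Cebpa d/d. Mad2l1 encodes MAD2, the checkpoint protein that captures CDC20. Mad2l1 in control read 7.67, 7.33 and 7.67 at 0 hr, 7.43, 7.25 and 6.61 at 3 hr and 8.99, 9.07 and 9.18 at 72 hr. Mad2l1 in Cebpa d/d read 7.47, 7.94 and 7.55 at 0 hr, 7.60, 7.17 and 7.44 at 3 hr and 8.54, 9.31 and 9.12 at 72 hr. It rose by 1.52 ± 0.21 (adjusted p = 0.000562) in control and 1.34 ± 0.21 (adjusted p = 0.00115) in Cebpa d/d, without overlap. Bub1b, the gene of the checkpoint protein BUBR1, had the smallest adjusted p of the 48 in control and rose by 1.60 ± 0.12 (adjusted p = 4.68e-06) in control and 1.58 ± 0.12 (adjusted p = 3.87e-06) in Cebpa d/d.

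Cdc20 encodes the activator of the APC/C, and its promoter is among those shown. Control arrays held Cdc20 at 6.5, 6.59 and 6.63 at 0 hr, 6.63, 6.40 and 6.64 at 3 hr and 7.09, 7.18 and 7.62 at 72 hr. Cdc20 on Cebpa d/d arrays read 6.58, 6.61 and 6.41 at 0 hr, 6.59, 6.53 and 6.62 at 3 hr and 7.0, 7.24 and 7.34 at 72 hr. The 72 hr arrays were all higher, by a modest 0.72 ± 0.12 (adjusted p = 0.00258) in control and 0.66 ± 0.12 (adjusted p = 0.00515) in Cebpa d/d. Ube2c encodes the ubiquitin-conjugating enzyme of the APC/C. Ube2c in control read 6.15, 6.47 and 6.49 at 0 hr, 6.42, 6.63 and 6.31 at 3 hr and 7.45, 7.38 and 6.99 at 72 hr. Ube2c in Cebpa d/d read 6.41, 6.05 and 6.5 at 0 hr, 6.23, 6.56 and 6.23 at 3 hr and 6.80, 7.31 and 6.83 at 72 hr. Its 72 hr arrays were above all others in both genotypes, with a rise of 0.90 ± 0.17 (adjusted p = 0.00374) in control and 0.66 ± 0.17 (adjusted p = 0.0279) in Cebpa d/d.

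Kinetochore genes rose in 6 of 6 cases in Cebpa d/d and 5 of 6 in control. Cenpa encodes the histone variant that marks the centromere. Cenpa in control read 6.56, 6.76 and 6.61 at 0 hr, 6.45, 6.43 and 6.72 at 3 hr and 7.17, 7.08 and 7.27 at 72 hr. Cenpa in Cebpa d/d read 6.59, 6.71 and 6.57 at 0 hr, 6.68, 6.48 and 6.23 at 3 hr and 7.02, 7.72 and 7.27 at 72 hr. The rise was small, 0.53 ± 0.15 (adjusted p = 0.0397) in control and 0.71 ± 0.15 (adjusted p = 0.00929) in Cebpa d/d, although the arrays did not overlap. Without control 72 hr replicate 3 the adjusted p for Cenpa in control was 0.132. Ndc80 encodes the outer kinetochore arm that grips microtubules. Control arrays held Ndc80 at 6.61, 6.43 and 6.46 at 0 hr, 5.99, 6.45 and 6.24 at 3 hr and 7.22, 7.18 and 7.72 at 72 hr. Ndc80 on Cebpa d/d arrays read 5.61, 6.64 and 6.18 at 0 hr, 6.56, 5.89 and 6.69 at 3 hr and 7.13, 8.20 and 7.32 at 72 hr. The 0 hr Cebpa d/d arrays differed widely among themselves, and the difference of 0.87 ± 0.28 (adjusted p = 0.0727) in control and 1.40 ± 0.28 (adjusted p = 0.0074) in Cebpa d/d passed in Cebpa d/d and not in control, with an interaction that did not pass. Its interaction, the rise in Cebpa d/d minus the control rise, was 0.53 ± 0.40, the largest of the 48, and did not pass. Cenpe encodes a kinesin that moves chromosomes to the equator. Cenpe in control read 6.88, 6.26 and 6.44 at 0 hr, 5.94, 5.96 and 5.44 at 3 hr and 7.88, 8.19 and 8.30 at 72 hr. Cenpe in Cebpa d/d read 6.25, 6.32 and 6.20 at 0 hr, 6.02, 6.18 and 6.17 at 3 hr and 7.93, 8.73 and 8.35 at 72 hr. This was the largest rise of the 48 in Cebpa d/d, at 1.60 ± 0.19 (adjusted p = 0.000204) in control and 2.08 ± 0.19 (adjusted p = 1.28e-05) in Cebpa d/d. Cenpf rose by 1.42 ± 0.13 and 1.86 ± 0.13. Nuf2 and Spc25, partners of NDC80 in the same complex, rose by 1.83 ± 0.16 and 1.35 ± 0.23 in control and by 1.67 ± 0.16 and 1.57 ± 0.23 in Cebpa d/d.

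Among 12 spindle and motor genes, 12 rose in Cebpa d/d and 11 in control. Kif11 encodes Eg5, the kinesin that pushes spindle poles apart. Kif11 in control read 6.76, 6.37 and 6.67 at 0 hr, 6.09, 6.14 and 4.90 at 3 hr and 8.13, 8.58 and 8.76 at 72 hr. Kif11 in Cebpa d/d read 6.23, 6.42 and 6.22 at 0 hr, 6.40, 6.19 and 6.71 at 3 hr and 7.41, 8.74 and 8.51 at 72 hr. Apart from 1 low control array at 3 hr the early arrays were alike, and the rise was 1.89 ± 0.32 (adjusted p = 0.0023) in control and 1.93 ± 0.32 (adjusted p = 0.0018) in Cebpa d/d. Tpx2 encodes the activator of Aurora A on spindle microtubules. Control arrays held Tpx2 at 6.66, 6.39 and 6.62 at 0 hr, 5.81, 5.94 and 5.95 at 3 hr and 7.86, 7.50 and 7.88 at 72 hr. Tpx2 on Cebpa d/d arrays read 6.14, 6.63 and 6.55 at 0 hr, 6.24, 6.01 and 6.44 at 3 hr and 7.30, 8.42 and 7.96 at 72 hr. Its 72 hr arrays were higher without overlap, with a rise of 1.19 ± 0.21 (adjusted p = 0.00307) in control and 1.45 ± 0.21 (adjusted p = 0.000561) in Cebpa d/d. Ckap2l encodes a microtubule-associated protein of the spindle. Ckap2l in control read 5.96, 6.41 and 6.25 at 0 hr, 5.86, 5.78 and 6.15 at 3 hr and 6.66, 6.64 and 6.44 at 72 hr. Ckap2l in Cebpa d/d read 6.19, 6.5 and 5.89 at 0 hr, 5.78, 5.84 and 6.02 at 3 hr and 7.40, 6.95 and 6.58 at 72 hr. As otherwise seen only for Kif20a, replicate 1 was the highest of the Cebpa d/d 72 hr arrays, and the difference of 0.37 ± 0.19 (adjusted p = 0.265) in control and 0.78 ± 0.19 (adjusted p = 0.0202) in Cebpa d/d passed in Cebpa d/d and not in control, with an interaction that did not pass. Without Cebpa d/d 0 hr replicate 3 that adjusted p was 0.0972. Hmmr, whose product binds hyaluronan and spindle microtubules, rose by 1.76 ± 0.20 and 1.62 ± 0.20, and Ckap2 by 1.75 ± 0.27 and 1.86 ± 0.27. The other 7 (Kif2c, Kif4, Kif15, Kif18a, Nusap1, Aspm and Dlgap5) rose by 0.66 to 1.40 in control and by 0.63 to 1.30 in Cebpa d/d.

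The 7 cytokinesis genes rose in 7 of 7 cases in each genotype. Prc1 encodes the protein that bundles the central spindle. Prc1 in control read 6.48, 5.70 and 6.67 at 0 hr, 5.69, 6.21 and 6.06 at 3 hr and 7.70, 7.73 and 8.05 at 72 hr. Prc1 in Cebpa d/d read 6.03, 6.61 and 6.37 at 0 hr, 6.38, 6.39 and 6.42 at 3 hr and 7.29, 8.50 and 7.94 at 72 hr. Control 0 hr replicate 2 was low, the 72 hr arrays were high in both, and the rise was 1.54 ± 0.26 (adjusted p = 0.00244) in control and 1.57 ± 0.26 (adjusted p = 0.00195) in Cebpa d/d. Ect2 encodes the exchange factor that activates RhoA at the cleavage furrow. Control arrays held Ect2 at 6.52, 6.37 and 6.74 at 0 hr, 6.44, 6.05 and 6.13 at 3 hr and 8.24, 8.44 and 8.55 at 72 hr. Ect2 on Cebpa d/d arrays read 6.17, 6.64 and 6.64 at 0 hr, 6.51, 6.30 and 6.25 at 3 hr and 8.07, 8.69 and 8.41 at 72 hr. A wide gap separated 72 hr from the earlier arrays in both, and the rise was 1.87 ± 0.16 (adjusted p = 1.68e-05) in control and 1.90 ± 0.16 (adjusted p = 8.27e-06) in Cebpa d/d. Anln encodes anillin, a scaffold of the contractile ring. Anln in control read 7.30, 6.82 and 7.35 at 0 hr, 7.0, 6.28 and 6.93 at 3 hr and 8.57, 8.76 and 8.58 at 72 hr. Anln in Cebpa d/d read 7.35, 7.22 and 6.74 at 0 hr, 7.05, 6.85 and 7.05 at 3 hr and 7.94, 8.92 and 8.38 at 72 hr. It rose by 1.48 ± 0.23 (adjusted p = 0.00131) in control and 1.31 ± 0.23 (adjusted p = 0.00284) in Cebpa d/d, without overlap. Racgap1 and Kif23 form centralspindlin. Racgap1 in control read 6.42, 6.37 and 6.10 at 0 hr, 6.09, 6.09 and 6.52 at 3 hr and 6.95, 6.90 and 7.10 at 72 hr. Racgap1 in Cebpa d/d read 6.24, 6.37 and 6.13 at 0 hr, 6.09, 5.95 and 6.07 at 3 hr and 6.68, 6.96 and 6.65 at 72 hr. The Racgap1 rise, 0.68 ± 0.13 (adjusted p = 0.0038) in control and 0.52 ± 0.13 (adjusted p = 0.0236) in Cebpa d/d, was the smallest in Cebpa d/d among those that passed. Kif23 rose by 1.72 ± 0.23 and 1.63 ± 0.23, Kif20a by 0.61 ± 0.11 and 0.66 ± 0.11 and Kif20b by 1.33 ± 0.18 and 1.26 ± 0.18.

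No gene of the 48 passed a test between control and Cebpa d/d at any time. At 72 hr the median difference, Cebpa d/d minus control, was -0.02, with a range from -0.30 (Hmmr) to 0.40 (Ckap2l). Without Cebpa d/d 72 hr replicate 1 that median was 0.19. At that time 0.01% of all genes passed as higher and 0.0602% as lower, so calls were rare for any gene. At an unadjusted p under 0.05 there was 1 of the 48, Ckap2l, against 6.31% of all genes. The genotypes' arrays overlapped for every one of the 48, while 8.89% of all genes were higher in Cebpa d/d and 6.19% lower without overlap. A test that is missed does not show equal levels, but the 95% intervals bound the difference: all 48 lay within 1 on the log2 scale either way. The lowest bound was -0.95 for Kif11 and the highest 0.79 for Ckap2l. With the spread of the 72 hr arrays alone, 47 of the 48 intervals stayed within 1, the exception being Kif11 with a lower bound of -1.03. The interaction passed for 0 of the 48 (0% of all genes higher, 0.0953% lower), with a median of 0.03 and a range from -0.24 (Ube2c) to 0.53 (Ndc80), and 1 gene, Cenpf at 0.43 ± 0.18, had an unadjusted p under 0.05 against 4.47% of all genes. For 43 of the 48 the interval of the interaction stayed within 1. With only the groups compared in the fit it did so for 39, and bounds reached -1.02 (Ncapg) and 1.39 (Ndc80). The interaction includes control 0 hr replicate 1, the array that goes against its label. Without that array the median interaction was -0.02, and without it and Cebpa d/d 72 hr replicate 1 it was 0.16. The rises in the 2 genotypes share no arrays, and over the 48 genes they had a Pearson correlation of 0.92, a description across genes that are not independent of each other.

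**Figure D4:**
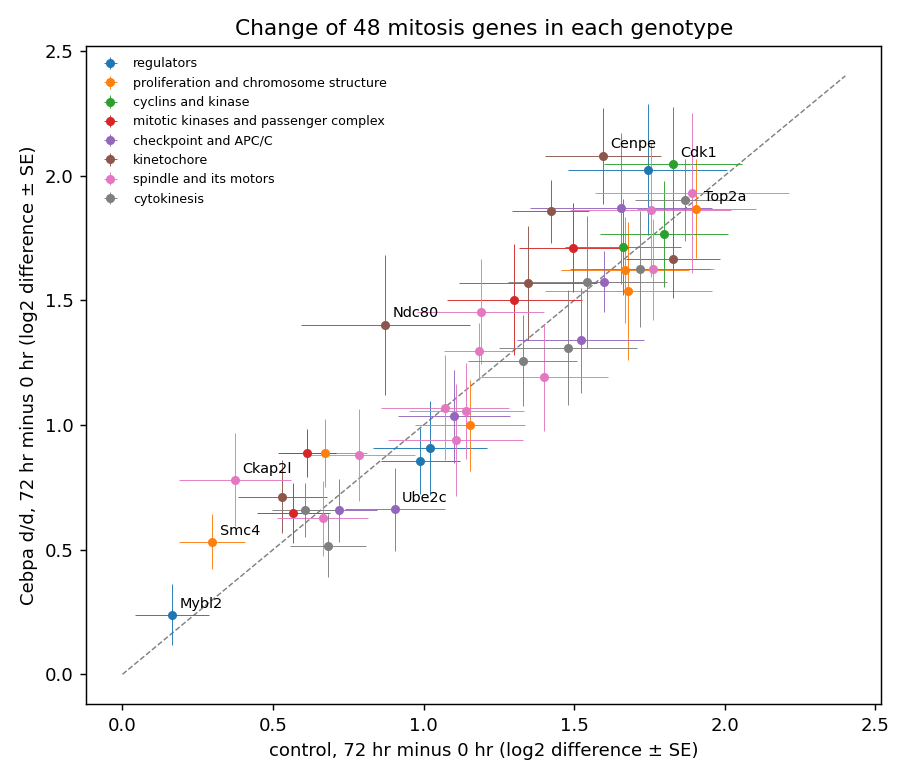
Rise of each of the 48 genes from 0 to 72 hr in Cebpa d/d (vertical) against control (horizontal), as log2 differences with SE bars, coloured by role, with the line of equality dashed. Points run along the line from Mybl2 at the lower left to Cdk1 at the upper right, and 41 of 48 lie within 0.25 of it in the vertical direction. Ndc80 and Cenpe are among the others and lie above the line.

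**Figure D5:**
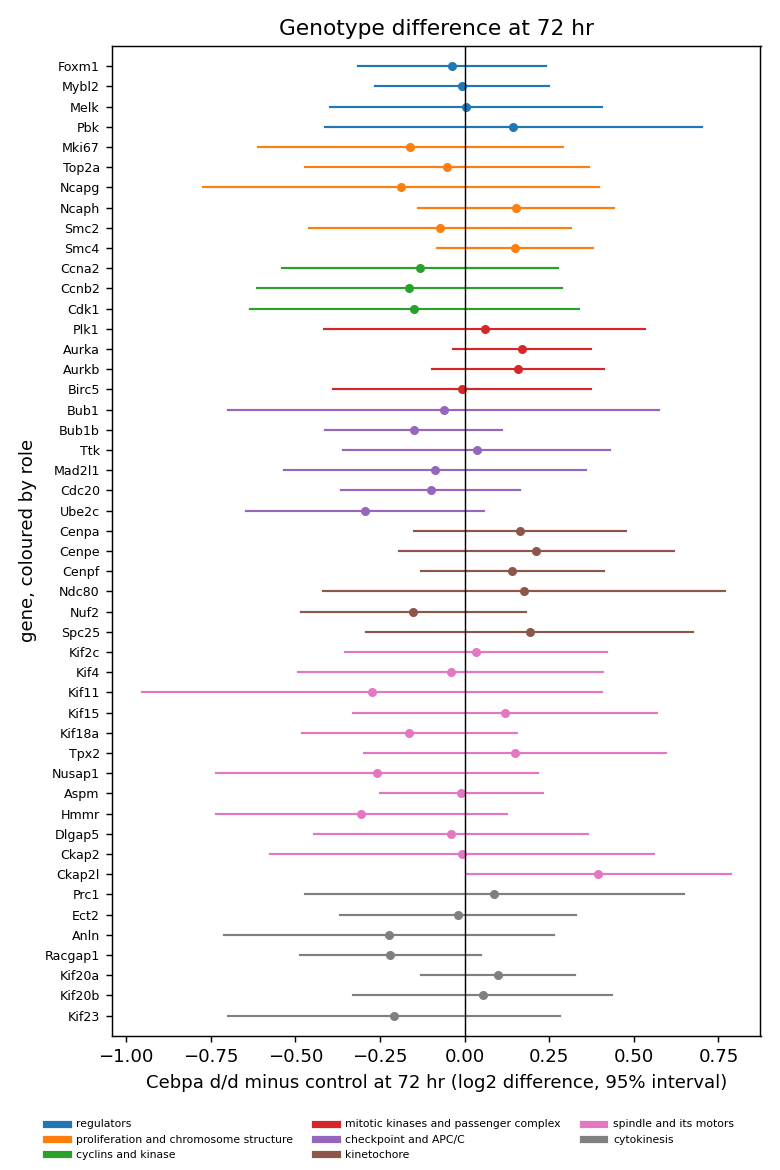
Log2 difference, Cebpa d/d minus control at 72 hr, for each of the 48 genes (rows, coloured by role), with its 95% interval from limma. All intervals lie between -0.95 and 0.79 and those of 47 genes hold 0; Ckap2l, at 0.40, is the exception, with an adjusted p of 0.788.

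The Cebpa d/d 72 hr arrays differed more among themselves than any other group. The median SD over the 48 genes was 0.42 there and 0.14 to 0.19 in the other 5 groups. Replicate 2 was the highest of the 3 for 45 of 48 genes and replicate 1 the lowest for 42, so the genes shifted together from array to array. Replicate 1 also had the highest Cebpa level of the Cebpa d/d arrays, 9.07. With only the 0 and 72 hr Cebpa d/d arrays in the fit, which gives that group's own spread more weight, 36 of 48 genes passed. Without replicate 1, the median rise in Cebpa d/d was 1.56 and 46 genes passed, and the median difference from control at 72 hr was 0.19 with 0 passing. Without replicate 2, 37 genes passed for the rise in Cebpa d/d, and Ube2c (adjusted p = 0.177), Racgap1 (0.148), Nusap1 (0.121) and Kif18a (0.116) were among those that did not. Across all 18 arrays the median pairwise Pearson correlation among the 48 genes was 0.92, on arrays that share that step between times. After each group's mean was removed it was 0.49, with 89.3% of pairs positive. Birc5 followed the mean of the other members most closely (0.99 over 18 arrays), and Mybl2 (0.28) and Ckap2l (0.75) least.

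At 0 and 3 hr none of the 48 genes passed between genotypes either. At 0 hr the median difference, Cebpa d/d minus control, was -0.06, 0 of 48 passed (0.326% of all genes higher, 0.01% lower), and 1 gene, Cenpf at -0.29 ± 0.13, had an unadjusted p under 0.05, against 8.53% of all genes. All 48 intervals at 0 hr lay within 1, the lowest bound being -0.99 for Kif11. They include control 0 hr replicate 1, the array that goes against its label. Without that array the median difference at 0 hr was -0.04 and 0 of 48 passed. At 3 hr the median was 0.09 and 0 of 48 passed (0.015% of all genes higher, 0% lower), with Top2a at 0.59 ± 0.20 and Kif11 at 0.72 ± 0.32 under an unadjusted p of 0.05, against 5.02% of all genes. Those were also the 2 genes whose intervals ran past 1, up to 1.40 for Kif11. In all, 7 genes (Foxm1, Smc2, Cdk1, Cenpe, Kif11, Tpx2 and Prc1) were higher in Cebpa d/d without overlap at 3 hr, where 3.74% of all genes were, and Melk and Racgap1 were lower, where 6.05% were.

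From 0 to 3 hr, 4 of the 48 genes fell in control and none rose, and none passed in Cebpa d/d. Over all genes 1.88% rose and 1.62% fell in control, and 2.66% rose and 1.72% fell in Cebpa d/d. Those 4 were Cenpf, at -0.66 ± 0.13 (adjusted p = 0.0106), Smc2, at -0.77 ± 0.18 (adjusted p = 0.0289), Top2a, at -0.79 ± 0.20 (adjusted p = 0.0385), and Cenpe, at -0.75 ± 0.19 (adjusted p = 0.0424). The same genes in Cebpa d/d differed by -0.11 ± 0.13, -0.57 ± 0.18, -0.19 ± 0.20 and -0.13 ± 0.19. Whether the genotypes differ in this step was not tested. Cenpf in control read 7.0, 6.67 and 6.80 at 0 hr and 6.39, 5.97 and 6.12 at 3 hr, without overlap. In control 14 of the 48 were lower without overlap, against 8.98% of all genes, and the median was -0.24 against 0.03 over all genes. In Cebpa d/d 8 were lower (11.9% of all genes) and 3 higher (10.7% of all genes) without overlap, and the median was -0.10. An unadjusted p under 0.05 was reached by 11 genes in control (21% of all genes) and 3 in Cebpa d/d (17.2% of all genes). The 4 calls varied with the arrays kept: 0 were left without control 3 hr replicate 2, and 1 without control 0 hr replicate 1, the array that goes against its label. Likewise 1 was left without control 0 hr replicate 3, and 1 when the third control array at 3 hr was omitted. Leaving out control 72 hr replicate 2 or Cebpa d/d 72 hr replicate 3 left 2, and 6 passed once Cebpa d/d 72 hr replicate 1 was omitted. Of the 18 fits without 1 array, Cenpf passed in 17, Smc2 in 14, Top2a in 12 and Cenpe in 7. Over all genes, 697 passed with every array. Leaving out control 0 hr replicate 1, 2 or 3 gave 309, 823 and 279, and control 3 hr replicate 1, 2 or 3 gave 1414, 310 and 231. From 0 to 3 hr, 1 of 5 endothelial markers fell in each genotype, and 7 of 7 cardiac muscle markers fell in Cebpa d/d, and their part was not tested.

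Other genes of the cell cycle, listed by their known roles, moved less uniformly. Of 69 further mitosis genes that were measured, 39 rose in control and 35 in Cebpa d/d from 0 to 72 hr, none fell, and the medians were 0.58 and 0.59. The shares of all genes that rose were 4.95% and 3.39%. Spc24, the partner of SPC25 in the NDC80 complex, read 6.46, 6.53 and 6.37 at 0 hr and 8.11, 8.19 and 8.18 at 72 hr in control, and 6.53, 6.60 and 6.46 against 7.10, 8.04 and 7.28 in Cebpa d/d. Its rise was 1.70 ± 0.18 in control (adjusted p = 7.45e-05) and 0.95 ± 0.18 in Cebpa d/d (adjusted p = 0.00536), and the interaction of -0.76 ± 0.26 did not pass (adjusted p = 0.852). Knl1, a scaffold of the outer kinetochore, rose by 1.21 ± 0.19 and 1.67 ± 0.19, and Cks2, a subunit of CDK complexes, by 1.29 ± 0.18 and 1.51 ± 0.18. Cit, the citron kinase of cytokinesis, rose by 0.80 ± 0.10 and 0.38 ± 0.10, with an interaction of -0.42 ± 0.14 (adjusted p = 0.749).

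Of 35 measured S phase genes, 13 rose in control and 12 in Cebpa d/d, none fell, and the medians were 0.42 and 0.46. From 0 to 72 hr 4.95% of all genes rose in control and 3.39% in Cebpa d/d. Rrm2, which supplies deoxynucleotides, rose by 1.27 ± 0.22 and 1.42 ± 0.22, and Tyms, which makes thymidylate, by 0.60 ± 0.13 and 0.89 ± 0.13. Mcm7, of the replicative helicase, rose by 0.71 ± 0.12 and 0.63 ± 0.12. Among 28 brakes and G1 regulators, 3 rose in each genotype and none fell, with medians of 0.02 and 0.11. These were Ccnd1, Rbl1 and Cdk2 in control and Ccnd1, Rbl1 and Cdk4 in Cebpa d/d. Ccnd1, the gene of cyclin D1, rose by 0.50 ± 0.13 (adjusted p = 0.0319) and 0.70 ± 0.13 (adjusted p = 0.00565). From 0 to 3 hr the brakes list held 1 gene that rose in control and 3 in Cebpa d/d, and Rbl1 fell in control. Over all genes 1.88% rose and 1.62% fell in control in that step, and 2.66% rose in Cebpa d/d. Plk3, a stress-responsive Polo-like kinase gene named after its values were seen, read 6.27, 6.01 and 6.23 at 0 hr and 7.25, 8.28 and 7.70 at 3 hr in control, and 6.08, 5.99 and 6.13 against 8.11, 8.04 and 8.41 in Cebpa d/d. That rise was 1.57 ± 0.20 (adjusted p = 0.000449) and 2.12 ± 0.20 (adjusted p = 1.39e-05), and its 72 hr difference from 0 hr, 0.08 and 0.15, did not pass. Btg1 and Btg2, antiproliferative genes also named after the fact, rose at 3 hr in Cebpa d/d by 0.46 ± 0.11 and 0.96 ± 0.20. Their control differences of 0.06 ± 0.11 and 0.32 ± 0.20 did not pass, nor did the differences between genotypes at 3 hr (adjusted p = 0.986 for Btg1 and 0.711 for Btg2).

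Genes outside the 48 whose profile over the 18 arrays was most like the members' mean were Knstrn, Tacc3, Cenph, Kntc1, Diaph3, Rrm2, Cdc25c, Cep55, Gins2 and Cip2a, with Pearson correlations from 0.99 to 0.97. The correlation is a description over arrays that share the step at 72 hr. Their rises from 0 to 72 hr ran from 0.54 (Gins2) to 1.77 (Cenph) in control and from 0.63 (Gins2) to 1.96 (Cenph) in Cebpa d/d.

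The 25 genes with both promoter motifs had median rises of 1.42 (control) and 1.57 (Cebpa d/d), and the 8 with neither 1.06 and 0.92. The ranges overlapped, from 0.37 to 1.91 and from 0.17 to 1.83 in control. In Cebpa d/d they ran from 0.52 to 2.05 and from 0.24 to 1.71, and no test was made. Nuf2, with no match, read 5.62, 5.73 and 5.76 at 0 hr, 5.52, 5.67 and 5.33 at 3 hr and 7.42, 7.50 and 7.68 at 72 hr in control. Its levels in Cebpa d/d were 5.66, 5.93 and 5.56 at 0 hr, 5.39, 5.53 and 5.74 at 3 hr and 7.01, 7.76 and 7.38 at 72 hr. The Nuf2 rise of 1.83 ± 0.16 (adjusted p = 1.46e-05) in control and 1.67 ± 0.16 (adjusted p = 1.43e-05) in Cebpa d/d stood beside 1.83 ± 0.23 and 2.05 ± 0.23 for Cdk1, while Mybl2, also without a match, did not pass.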

How the data were processed

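The values were the log2 table deposited for the series, 1 value per probe set and array, processed with RMA, per the submitters' processing notes; its version, build and filters are not given in the sources used here. RMA normalizes between arrays and compresses low signals, so small changes near background are understated. The platform annotation named 1 gene for 21789 of 35557 probe sets, several for 1621 and none for 12147. Only the first kind was used, which gave 19938 genes at 1 probe set each. On the log2 scale as deposited, values spanned 2.53 to 13.93 and array medians 6.48 to 6.65. The number of arrays limits the precision.

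In R 4.3.3, limma 3.58.1 fitted 1 model of 6 group means (12 residual degrees of freedom plus 4.49 from eBayes) with 10 contrasts, Benjamini-Hochberg adjusted over 19938 genes, threshold 0.05. The script was tested on simulated data. For control 72 hr minus 0 hr it recovered 40% of added log2 changes of 0.5, 92% of those of 1, and 100% of those of 2 and 3. Changes of 0.5 or less would thus often be missed in such a setting. The simulation gave each gene the same spread in every group and changed few genes, in control 72 hr alone. Its shares therefore do not carry over to the genotype comparisons or to the more widely spread Cebpa d/d 72 hr group. Replicate numbers did not pair the arrays: same-numbered deviations correlated at -0.29 to 0.20, and in 0 of 9 comparisons were all over 0.1. The members, the other lists and the rules were chosen with earlier results of these data known. All members may be named, with every array's value for lead members of each role; up to 4 genes of each other list with the smallest adjusted p from 0 to 72 hr and the 10 most correlated genes were named. Alternatives were a filter on low levels, the mean of probe sets, trended robust variance, array weights, a replicate block, only the groups compared, centred arrays, sex, and leaving out each array or both doubted arrays (replicate 1 of control at 0 hr and of Cebpa d/d at 72 hr).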

Additional observations from a re-analysis of the deposited data

How the results depend on the processing

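Of the counts of mitosis genes that passed, those from 0 to 72 hr and from 3 to 72 hr stayed within 1.5 times of the value given under each alternative except the filter on low levels. When genes below the median level were left out, 17 of the 48 remained to be tested, of which 16 passed from 0 to 72 hr in control and 17 in Cebpa d/d, and 17 from 3 to 72 hr in each; fewer genes were tested. Leaving out 1 array gave 41 to 45 genes from 0 to 72 hr in control, 37 to 47 in Cebpa d/d, and 45 to 47 and 44 to 47 from 3 to 72 hr.

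The 4 calls from 0 to 3 hr in control became 2 with each array centred, 2 without both doubted arrays, 0 with only the groups compared, and 0 to 6 when 1 array was left out; the cause was not tested. In Cebpa d/d the count of 0 became 1, Smc2, with only the groups compared and without both doubted arrays, and 0 to 1 when 1 array was left out; the cause was not tested. With the replicate number as a block, control gave 43 from 0 to 72 hr, 46 from 3 to 72 hr and 2 from 0 to 3 hr, and Cebpa d/d gave 47, 47 and 0; as the numbers do not pair the arrays, this is no sign of a weaker change. Comparisons between genotypes and the interaction stayed at 0 under all 27 alternatives.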
